A study of Mus musculus with 4 samples.

Results

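RT + αPD-L1 was set against RT alone in CD8+ PD-1+ CD44+ T cells of the tumor-draining lymph node (TdLN), the comparison that asks what an antibody to PD-L1 adds to radiotherapy of a melanoma. All cells of the RT + αPD-L1 library and of the RT library entered it when they had 500 to 5000 detected genes, at most 40000 unique molecular identifiers (UMIs, counts of captured RNA molecules), under 10% mitochondrial UMIs and 1 clear hashtag. Barcodes with at least 2 Trdc, 2 Cd79a or 3 summed H2-Aa and H2-Ab1 UMIs were left out, as marks of γδ T cells, B cells and cells presenting on MHC class II. This gave 9673 RT + αPD-L1 cells and 8954 RT cells, 18627 of the 38317 cells that passed the same rule in all 4 libraries. The mice were C57BL/6 females that carried B16F10GP melanomas on both flanks, a mouse melanoma line made to express the LCMV glycoprotein as a model tumor antigen. In RT + αPD-L1 the right tumor was irradiated and the antibody was given intraperitoneally, in RT the right tumor was irradiated without the antibody, and the αPD-L1 and Control libraries held mice given the antibody alone or no treatment. The TdLN was taken from the irradiated side on day 7 after treatment, and 5 mice per library were marked with hashtag antibodies and pooled. Each treatment was thus 1 library, and an effect of treatment cannot be told apart from an effect of the library. The sorted cells are a mixture of all antigen-experienced clones of the node, not only tumor-specific cells.

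The kept cells held 73674406 UMIs in RT + αPD-L1 and 72173902 in RT, with medians of 6292 and 6628 UMIs per cell. The mice were unevenly represented, with 468, 1936, 4693, 1549 and 1027 cells for mice 1 to 5 of RT + αPD-L1 and 849, 2373, 2390, 144 and 3198 cells for mice 1 to 5 of RT. RT mouse 4 was the shallowest (1214128 UMIs), where 3 counts correspond to 2.47 CPM (UMIs of a gene scaled to the total of its mouse), and RT + αPD-L1 mouse 3 the deepest. The libraries shared 107 cell barcodes (1.19% of the smaller library). Cd8a lay between 596 and 771 CPM in RT + αPD-L1 mice and between 695 and 749.5 CPM in RT mice. Cd3e was between 1019 and 1203 CPM in RT + αPD-L1 mice and between 1056 and 1179 CPM in RT mice. Cd4 was at most 1.59 CPM in RT + αPD-L1 and at most 1.1 CPM in RT. The 4-gene CD4 T cell list summed to 16.2 to 23.2 CPM in RT + αPD-L1 and 20.5 to 23.9 CPM in RT. A 10-gene B cell list summed to 172.5 to 230.3 CPM in RT + αPD-L1 and 214.1 to 230.6 CPM in RT. Of 5 melanoma genes, Tyr, Dct and Tyrp1 were at 0 in both. The melanoma list summed to at most 1.2 CPM in RT + αPD-L1 and 1.1 CPM in RT. The part of other cell types in these sums was not tested.

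Interferons are cytokines that, on binding their receptors, activate the transcription factors STAT2 and IRF9, which act at a DNA element repeating the letters GAAA and switch on a large set of interferon-stimulated genes. Their products block virus replication, sense foreign nucleic acids, load peptides on MHC class I and, in T cells, change survival and effector differentiation. In chronic antigen exposure, CD8+ PD-1+ T cells with the transcription factor TCF-1 (gene Tcf7) form a stem-like reservoir that yields granzyme-bearing effector cells, and blocking PD-L1 releases the brake that PD-1 places on antigen receptor signals. The promoters of 4 interferon-stimulated genes on which the results turn are shown, since the shared element is visible in each. The sequences are from RefSeq (GRCm38.p6, the assembly also called mm10), 250 bases before to 50 bases after the start of the gene, on the strand of the gene, and capitals mark every match to GAAANNGAAA or, on the other strand, TTTCNNTTTC. Isg15 lies on the minus strand (chr4:156200769-156201068), Rsad2 on the minus strand (chr12:26456403-26456702), Ifit1 on the plus strand (chr19:34640639-34640938) and Ifit3 on the plus strand (chr19:34583279-34583578).
Isg15: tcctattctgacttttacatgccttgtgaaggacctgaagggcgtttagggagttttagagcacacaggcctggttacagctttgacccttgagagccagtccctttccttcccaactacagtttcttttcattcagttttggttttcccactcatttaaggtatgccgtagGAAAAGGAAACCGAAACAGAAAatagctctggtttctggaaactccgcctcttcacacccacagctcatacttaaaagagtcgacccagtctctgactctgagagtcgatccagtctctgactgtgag
Rsad2: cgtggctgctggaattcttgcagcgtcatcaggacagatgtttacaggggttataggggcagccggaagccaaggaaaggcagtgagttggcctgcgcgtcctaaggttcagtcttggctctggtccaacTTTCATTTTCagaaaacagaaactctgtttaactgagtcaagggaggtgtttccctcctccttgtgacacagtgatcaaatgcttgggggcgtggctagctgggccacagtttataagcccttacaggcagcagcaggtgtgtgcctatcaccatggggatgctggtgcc
Ifit1: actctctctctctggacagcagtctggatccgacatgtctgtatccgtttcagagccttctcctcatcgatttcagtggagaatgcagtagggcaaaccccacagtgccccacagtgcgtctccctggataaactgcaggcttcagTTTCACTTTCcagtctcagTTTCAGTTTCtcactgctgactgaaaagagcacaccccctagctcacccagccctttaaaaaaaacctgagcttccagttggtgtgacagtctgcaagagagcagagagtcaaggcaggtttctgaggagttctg
Ifit3: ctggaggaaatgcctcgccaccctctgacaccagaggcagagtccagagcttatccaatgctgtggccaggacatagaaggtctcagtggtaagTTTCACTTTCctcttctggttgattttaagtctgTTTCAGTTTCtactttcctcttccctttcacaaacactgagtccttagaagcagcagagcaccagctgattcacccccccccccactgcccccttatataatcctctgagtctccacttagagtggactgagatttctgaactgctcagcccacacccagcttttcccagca

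Isg15 held 3 overlapping matches, Rsad2 held 1, and Ifit1 and Ifit3 held 2 each. The first match began 78 bases before the start of Isg15, 120 before Rsad2, 104 before Ifit1 and 156 before Ifit3. Over the whole RefSeq table, 1131 of 32851 promoters (3.44%) held the letters, and over genes tested here 356 of 9242 with a promoter (3.85%). Among genes higher in RT + αPD-L1 than in RT by the test described next, 65 of the 246 with a promoter (26.4%, 313 genes called) held them, among genes lower it was 1 of 36 (2.78%), and among the antiviral effector and ISG15 conjugation genes it was 19 of 37 (51.4%). Matches to letters are a description and not a map of bound sites.

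Adding αPD-L1 to RT was accompanied by a broad rise of interferon-stimulated genes, by higher Ly6a, Plac8 and Gzmb, and by lower Rgs16 and Cpt1a, whereas no gene of the S phase, mitosis or nuclear respiratory chain lists was called. UMIs were summed per mouse and all 20 mice of the study entered 1 edgeR quasi-likelihood fit, from which RT + αPD-L1 against RT was read (two-sided, Benjamini-Hochberg adjusted p under 0.05 over all genes tested). Of 12051 genes, 367 (3.05%) were called, of which 313 (2.6%) were higher and 54 (0.448%) lower in RT + αPD-L1. At least 2-fold changes were reached by 104 of the higher and 5 of the lower genes. The values of all 5 RT + αPD-L1 mice lay above those of all 5 RT mice for 155 genes (1.29%) and below them for 150 genes (1.24%). The median log2 fold change over all genes was −0.0027. These calls rest on a spread shared over 20 mice. Without RT + αPD-L1 mouse 3, edgeR did not call Gzmb, Ly6a or Rgs16 (adjusted p = 0.296, 0.0603 and 0.0515). Plac8 and Cpt1a were still called in that fit (adjusted p = 0.00989 and 0.0436). With only the 10 compared mice in the edgeR fit no gene was called (smallest adjusted p 0.0527, 1441 genes at an unadjusted p under 0.05), DESeq2 on these mice called 125 higher and 16 lower, and limma-voom 2 higher and 3 lower. In interferon-stimulated genes the RT + αPD-L1 mice differed most among themselves. Over 40 of them the median standard deviation (SD) of log2 CPM was 0.953 in RT + αPD-L1, against 0.313 in RT, 0.363 in αPD-L1 and 0.354 in Control, while over all genes it was 0.149 in RT + αPD-L1 and 0.15 in RT. In sums over sorted cells, more cells of a kind and more RNA per cell cannot be told apart, and values per cell are therefore given further on.

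Antiviral effectors, the proteins that act directly on viral RNA or particles, rose in nearly every tested member. Of 41 listed genes 36 passed the filter on low counts, and 34 of these were called higher (2.6% of all genes) with a median log2 fold change of 1.51. A gene with few counts in RT could pass that filter through RT + αPD-L1, so counts over tested genes are descriptions. In 7 of the 36 all RT + αPD-L1 mice lay above all RT mice, as in 1.29% of all genes. Rsad2 encodes viperin, a radical enzyme that makes a chain-terminating nucleotide (chr12:26442746-26456452). Its level was 0.6, 106, 102, 23.1 and 22.6 CPM in mice 1 to 5 of RT + αPD-L1, against 3.03, 2.46, 2.58, 0 and 7.54 CPM in mice 1 to 5 of RT. RT + αPD-L1 mouse 1 lay within or below the RT mice and the other 4 lay above all of them, so the groups overlapped through 1 mouse, and the 0 of RT mouse 4 allows up to 2.47 CPM. The log2 fold change was 3.81 ± 0.645 (SE, adjusted p = 0.00372, 14.1-fold).

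Ifit3, whose product joins the IFIT complex that holds foreign RNA caps (chr19:34583531-34588731), showed the same arrangement of mice. It stood at 21.5, 285, 322, 102 and 91.5 CPM in RT + αPD-L1 and at 32.9, 17.5, 12.5, 9.06 and 33.4 CPM in RT. Again mouse 1 of RT + αPD-L1 fell among the RT mice, and mice 2 and 3 were the highest (log2 fold change 2.95 ± 0.544, adjusted p = 0.00465). Ifit1, the cap-binding member itself (chr19:34640871-34650009), rose 6.58-fold (2.72, adjusted p = 0.00499). Its near copy Ifit3b rose by a log2 fold change of 3.25, but reads could be shared between Ifit3 and Ifit3b and their values are uncertain one by one. The 2′-5′ oligoadenylate synthases, which make the activator of RNase L, rose too: Oas2 12.1-fold, Oasl2 9.68-fold and Oas1a 4.71-fold, again within a family of near copies. Cmpk2, a mitochondrial nucleotide kinase whose gene neighbours Rsad2, rose 5.3-fold. Bst2, the tether that holds virus particles on the cell surface, also stands in the marker list of plasmacytoid dendritic cells, whose summed level was 149.8 to 697.6 CPM in RT + αPD-L1 and 110.4 to 159.4 CPM in RT. Bst2 made up most of it, and Siglech, which defines those cells, was at most 0.14 CPM in both groups. Over the 4 of 6 listed genes that passed the filter the median log2 fold change was 0.35. The part of such cells in the Bst2 values was not tested.

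Isg20, an exonuclease that degrades viral RNA, was one of the genes with separated groups. It was at 39.5, 171, 202, 77.4 and 84.6 CPM in RT + αPD-L1 mice and at 35.4, 33.4, 27.3, 21.4 and 37.3 CPM in RT mice. Even the lowest RT + αPD-L1 mouse, mouse 1, stood above the highest RT mouse (log2 fold change 1.91 ± 0.306, adjusted p = 0.00279). Ifitm3, a membrane protein that blocks virus entry, was at 1.79, 10.5, 67.3, 4.08 and 6.63 CPM in RT + αPD-L1 and at 0.58, 0.84, 0.78, 3.29 and 1.02 CPM in RT. The fitted log2 fold change of 4.58 (adjusted p = 0.00431) was 2.82 without RT + αPD-L1 mouse 3, and the gene was still called (adjusted p = 0.0138). Its relatives Ifitm1 (2.21, adjusted p = 0.0687) and Ifitm2 (1.42, adjusted p = 0.0625), named after their values were seen, were not called.

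The ubiquitin-like modifier ISG15 and the enzymes that attach and remove it form a closed set of 5 genes. All 5 were called higher (2.6% of all genes, median 2.47). Isg15 (chr4:156199424-156200818) was at 52.0, 586, 823, 182 and 194 CPM in RT + αPD-L1, against 60.9, 57.9, 45.4, 28.8 and 78.1 CPM in RT. Mouse 1 of RT + αPD-L1 was inside the range of RT, and the other 4 mice were above it. The log2 fold change was 2.73 ± 0.519 (adjusted p = 0.00501, 6.64-fold), and 2.20 without RT + αPD-L1 mouse 3 (adjusted p = 0.0179). Among the enzymes, the E1 Uba7 rose 1.68-fold, the E2 Ube2l6 rose 5.56-fold, and Usp18, the protease that takes ISG15 off and that also binds the interferon receptor to damp it, rose 6.64-fold. The summed level of the set was 148, 980, 1314, 366 and 384 CPM in RT + αPD-L1 mice and 163, 159, 136, 107 and 187 CPM in RT mice.

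**Figure D1:**
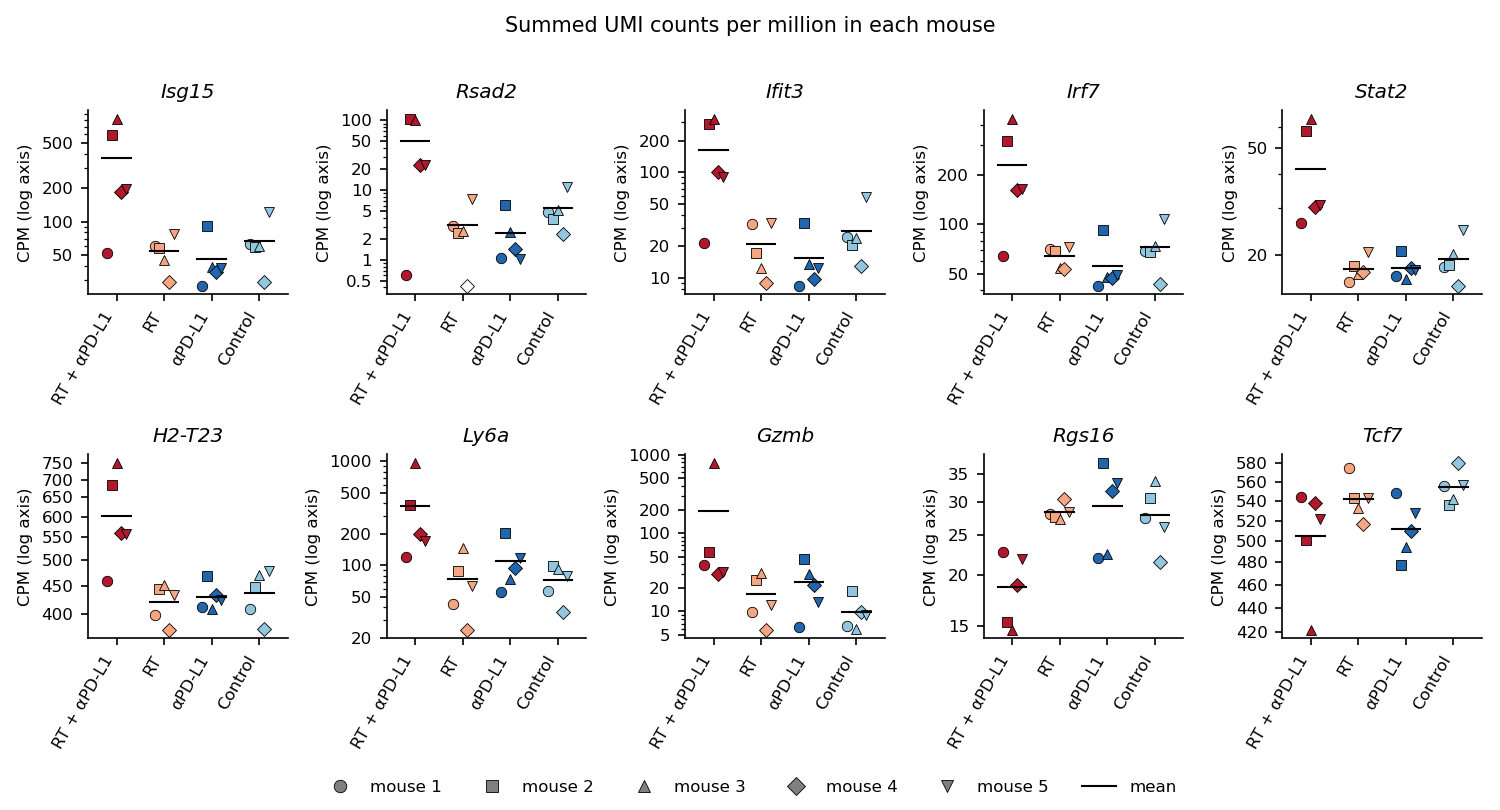
Summed UMI counts in CPM (log axis) of 10 genes in each mouse of RT + αPD-L1, RT, αPD-L1 and Control, where symbols are mice and bars are means. Isg15, Rsad2, Ifit3 and Irf7 are high in 4 of 5 RT + αPD-L1 mice with mouse 1 at the RT level, Gzmb is highest in RT + αPD-L1 mouse 3, and the open symbol for Rsad2 in RT is mouse 4, in which no UMI was counted and which is drawn at the foot of the axis.

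Sensors of foreign nucleic acid followed. Of 17 tested genes of 19 listed, 14 were called higher (2.6% of all genes) with a median log2 fold change of 0.86. Dhx58 encodes LGP2, a helper of the RIG-I-like RNA helicases. It was at 15.6, 63.0, 81.3, 33.4 and 33.3 CPM in RT + αPD-L1 and at 14.7, 14.3, 10.7, 9.06 and 14.9 CPM in RT, with no overlap (log2 fold change 1.90, adjusted p = 0.00372). Ifi204, a DNA-binding member of the PYHIN family, was low in RT (at most 0.47 CPM) and between 1.2 and 20.3 CPM in RT + αPD-L1, with mouse 3 the highest. Its fitted log2 fold change of 4.46 depends on the prior count at such levels, and it belongs to a family of near copies.

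In interferon signalling itself, 7 of 19 genes were called higher (2.6% of all genes, median 0.45). The count was 4 without RT + αPD-L1 mouse 3, with a median of 0.135, and 4 without mouse 2. The called genes sat downstream of the receptor. Stat2 (chr10:128270559-128292849), the STAT specific to type I and III interferons, was at 26.3, 57.8, 64.2, 30.2 and 30.7 CPM in RT + αPD-L1 mice, against 15.9, 18.2, 17.1, 17.3 and 20.6 CPM in RT mice. All RT + αPD-L1 mice lay above all RT mice (log2 fold change 1.32 ± 0.203, adjusted p = 0.00259), which made it one of the best separated interferon genes. Irf7 (chr7:141262706-141266481), the factor that amplifies interferon production, was at 64.3, 318, 434, 161 and 164 CPM in RT + αPD-L1 and at 71.2, 69.3, 54.4, 53.5 and 73.2 CPM in RT (1.86, adjusted p = 0.00465), with mouse 1 again among RT. Irf9, the DNA-binding partner of the STATs, rose 1.49-fold (adjusted p = 0.00412). The receptor chains were not called: Ifnar1 had a log2 fold change of 0.10 and Ifnar2 of −0.01, both named after their values were seen, and Ifngr1, a chain of the interferon-γ receptor, had 0.55 (adjusted p = 0.15) with 279 CPM in RT + αPD-L1 mouse 3 and 104 to 119 CPM in its other mice.

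Other interferon-linked families rose in most of their tested members. Of 8 PARP-family genes, ADP-ribosyl transferases of which several are antiviral, 6 were called higher (2.6% of all genes, median 0.84). Parp12 rose 4.73-fold. Parp14 was at 44.3, 103, 119.9, 59.4 and 58.8 CPM in RT + αPD-L1, against 35.8, 39.7, 39.3, 35.4 and 43.0 CPM in RT, and did not overlap (log2 fold change 1.05, adjusted p = 0.00475). Of 16 tested interferon-inducible GTPases, which attack the membranes around intracellular pathogens, 13 were called higher (2.6% of all genes, 19 were listed, median 1.14), with Gbp10 4.15-fold, Iigp1 3.92-fold and Tgtp2 2.22-fold higher. GBP and IRG genes have near copies, so single values are uncertain.

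MHC class I presentation changed by small amounts in many genes, 16 of 24 called higher (2.6% of all genes) with a median of 0.33. H2-T23, which encodes Qa-1, the ligand of the NKG2A receptor, was at 459.6, 684, 751, 561 and 558 CPM in RT + αPD-L1 mice and at 398, 445, 451, 374 and 433 CPM in RT mice. These groups did not overlap, and the difference was 1.45-fold (log2 0.53 ± 0.101, adjusted p = 0.00499). H2-T24 rose 2.35-fold and H2-Q4 rose 1.36-fold (adjusted p = 0.00366), and both belong to a cluster of near-identical class I genes. B2m, the invariant light chain of MHC class I, was at 2569 ± 238 CPM in RT + αPD-L1 and 2297 ± 86.1 CPM in RT (SD, n = 5 mice each, log2 0.17, adjusted p = 0.135, named after its value was seen) and was not called.

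The size of the interferon response followed the mouse. Over the antiviral effectors the summed level was 4563, 9411, 12275, 6894 and 6881 CPM in mice 1 to 5 of RT + αPD-L1, against 4463, 4523, 4242, 3661 and 4343 CPM in mice 1 to 5 of RT. Mouse 3 was the highest, mouse 2 next, mice 4 and 5 were nearly equal and mouse 1 was only just above the highest RT mouse. The response did not rest on mouse 3 alone. Without it 31 of 36 antiviral effectors (median 1.22), 5 of 5 ISG15 conjugation genes (median 1.85), 8 of 16 GTPases (0.89) and 7 of 24 MHC class I genes (0.23) were called. Without RT + αPD-L1 mouse 2 it was 31, 5, 9 and 7 genes, and without mouse 1 it was 35, 5, 16 and 19 genes. With hashtags called by HTODemux, 10 GTPases and 9 MHC class I genes were called. Over all genes 2.6% were called higher with all mice, and fewer without mouse 3, without mouse 2 or with HTODemux. The count over all genes thus moved with the mouse left out as well, and changes in the list counts are descriptions. In the edgeR fit of only the 10 mice, all 40 tested antiviral effector and ISG15 conjugation genes were higher in RT + αPD-L1 at an unadjusted p under 0.05 (median log2 fold change 1.5), and none passed adjustment (adjusted p = 0.0774 for Isg15, Rsad2, Ifit3 and Stat2). With both RT mouse 4 and RT + αPD-L1 mouse 3 left out, 29 of 41 passed in a fit of the remaining mice of all 4 libraries (median 1.19). In that fit 96 of 12107 genes in all were called higher.

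Per cell, the whole distribution of interferon UMIs lay higher in mice 2 to 5 of RT + αPD-L1. Each cell was thinned at random to 3000 UMIs and its UMIs of 46 interferon genes were added up. The median cell held 14, 24, 38, 20 and 20 such UMIs in mice 1 to 5 of RT + αPD-L1, against 12, 13, 13, 11 and 12 in mice 1 to 5 of RT. The 10th percentile of cells was 6, 9, 15, 8 and 8 UMIs in RT + αPD-L1 and 5, 6, 6, 5 and 5 in RT, and the 90th percentile was 26, 73, 83, 46 and 45 in RT + αPD-L1 and 27.6, 26, 23, 20 and 26 in RT. Both ends of the distribution were higher in mice 2 to 5 of RT + αPD-L1 than in every RT mouse, the upper end by more. Mouse 1 had a median above the RT mice and an upper end inside their range.

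**Figure D2:**
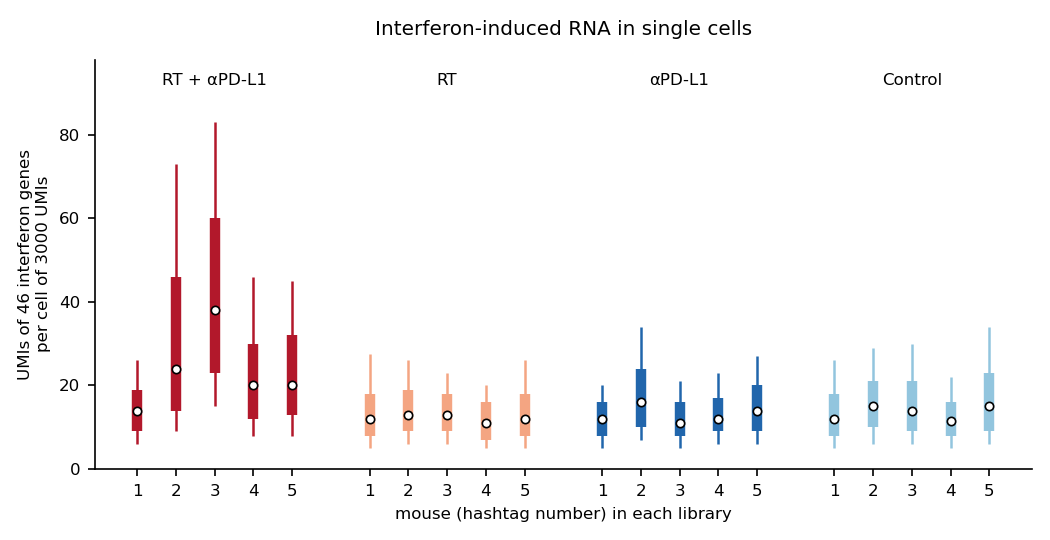
UMIs of 46 interferon genes per cell thinned to 3000 UMIs (y axis) in each mouse (x axis) of RT + αPD-L1, RT, αPD-L1 and Control, where circles are medians, thick bars span the middle 50% of cells and thin lines run from the 10th to the 90th percentile. Medians are 24, 38, 20 and 20 in mice 2 to 5 of RT + αPD-L1 and 11 to 13 in RT mice.

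The cells were also split, on raw UMIs, into cycling cells (at least 3 UMIs over 6 mitosis genes) and, among the rest, cells with Tcf7 and Tox, cells with Tcf7 but no Tox UMI, and cells with no Tcf7 UMI. Tox encodes a regulator of cells under chronic antigen exposure. Because a missing UMI does not mean a silent gene, these gates enrich for states and do not define them. Cycling cells numbered 1746 in RT + αPD-L1 and 1528 in RT, and 131 of 10334 genes (1.27%) were called higher. Among cells with Tcf7 and Tox (2906 and 3426 cells) 206 of 10589 genes (1.95%) were higher, among cells with Tcf7 and no Tox (3774 and 3097 cells) 335 of 10342 (3.24%), and among cells without Tcf7 (1247 and 889 cells, 4 RT mice because mouse 4 had too few) 200 of 8375 (2.39%). Genes called lower numbered 11, 34, 65 and 23 in these gates. Of the tested antiviral effector and ISG15 conjugation genes, 33 of 39 were called higher in cycling cells, 37 of 39 with Tcf7 and Tox, 38 of 39 with Tcf7 and no Tox, and 34 of 37 without Tcf7, with median log2 fold changes of 1.57, 1.5, 1.72 and 2.04. The interferon genes were thus higher in all 4 gates, and whether the gates differ from each other was not tested.

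Isg15 illustrates the gates. In cells without Tcf7 it was at 160, 822, 1357, 264 and 231 CPM in RT + αPD-L1 mice and at 75.6, 75.3, 71.7 and 87.4 CPM in RT mice 1, 2, 3 and 5, with no overlap (log2 fold change 2.998, adjusted p = 0.000243). In cells with Tcf7 and Tox it was at 50.6, 550.5, 737, 184 and 215 CPM in RT + αPD-L1 and at 69.6, 61.2, 47.9, 59.0 and 88.0 CPM in RT (2.49, adjusted p = 0.00112). Mouse 1 of RT + αPD-L1 was above all 4 RT mice in the cells without Tcf7 and among the RT mice in the cells with Tcf7 and Tox. Fitted on only the 10 mice, edgeR called 0 genes higher or lower in cycling cells (851 genes at an unadjusted p under 0.05, smallest adjusted p 0.0916, all 35 tested antiviral effector and ISG15 conjugation genes among them), 118 higher and 11 lower with Tcf7 and Tox, 146 and 31 with Tcf7 and no Tox, and 93 and 7 without Tcf7. The last 3 gates had 10035, 9930 and 8164 genes tested in all. Of the antiviral effector and ISG15 conjugation genes there, 33 of 39, 34 of 38 and 32 of 38 were called higher.

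Effector genes moved in a few members and mostly through 1 mouse. Of 15 cytotoxic granule genes 3 were called higher, Gzmb, Gzmc and Ctsw (2.6% of all genes, median of the list 0.40). Gzmb (chr14:56258838-56262260) encodes granzyme B, the protease that triggers death of the target cell. It was at 38.6, 56.8, 791, 29.8 and 31.4 CPM in RT + αPD-L1, against 9.96, 25.2, 30.9, 5.77 and 12.1 CPM in RT. Mouse 3 stood far above all others, and the lowest RT + αPD-L1 mouse, mouse 4, lay just below the highest RT mouse. The log2 fold change was 3.38 ± 0.807 (adjusted p = 0.0211), and 1.04 without mouse 3 (adjusted p = 0.296), so the call and the size rest on that mouse. Gzmc, a granzyme with few counts, was at 7.78 CPM in mouse 3 and at most 1 CPM in the other RT + αPD-L1 mice, and was not called without mouse 3 (0.64, adjusted p = 0.71). Leaving out RT mouse 1, 2 or 5 also lost the call of Gzmb, and leaving out RT mouse 2, 3, 4 or 5 that of Gzmc. Ctsw, a cysteine protease of cytotoxic cells, was at 424, 415.5, 399, 394 and 386.5 CPM in RT + αPD-L1 and at 324, 347, 377, 363 and 332 CPM in RT, a small difference with no overlap (0.22, adjusted p = 0.0178), whose call was lost without RT mouse 1, 2 or 5 or RT + αPD-L1 mouse 2. Gzma, granzyme A, was at 116 ± 191 CPM in RT + αPD-L1 and 25.6 ± 26.2 CPM in RT (SD, n = 5 mice each, log2 2.14, adjusted p = 0.244, named after its value was seen).

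Receptors shared with natural killer (NK) cells had no called gene among 11 tested of 15 listed by edgeR, at a median log2 fold change of 0.56, which was −0.03 without RT + αPD-L1 mouse 3. Klrk1, which encodes the activating receptor NKG2D (CD314), was at 13.8, 25.01, 64.96, 24.2 and 17.7 CPM in RT + αPD-L1 and at 10.8, 26.5, 22.02, 11.5 and 15.97 CPM in RT. Only mouse 3 lay outside the RT range (log2 fold change 0.79, adjusted p = 0.244). Klrg1, a marker of short-lived effectors, was at 18.6 CPM in mouse 3 and at most 2.66 CPM in the other RT + αPD-L1 mice, against at most 3.10 CPM in RT. Beside these values, the summed level of an 8-gene NK cell marker list was 80.4, 159, 574, 107 and 108 CPM in RT + αPD-L1 and 68.0, 169, 132, 69.2 and 102 CPM in RT. Gzma gave 456 of the 574 CPM in RT + αPD-L1 mouse 3 and 11.7 to 57.6 CPM in the other RT + αPD-L1 mice, against 4.33 to 65.8 CPM in RT, while Ncr1, the receptor that defines NK cells, was at most 0.72 CPM in RT + αPD-L1 and at most 1.94 CPM in RT. A monocyte and macrophage list of 8 genes was at 66.1 CPM in mouse 3 and 17.0 to 20.3 CPM in the other RT + αPD-L1 mice, against 14.4 to 28.8 CPM in RT, with Lyz2 at 47.6 CPM in mouse 3. The part of other cell types in the effector values was not tested.

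Of 24 effector regulators and cytokines 1 was called higher, Plac8, a share near the 2.6% of all genes (median of the list 0.22, and 0.09 without RT + αPD-L1 mouse 3). Plac8, a small cysteine-rich protein of effector and memory T cells (chr5:100553725-100572245), was at 65.2, 241, 572, 157 and 131 CPM in RT + αPD-L1 mice, against 61.1, 59.7, 58.6, 68.4 and 68.4 CPM in RT mice. The RT mice were nearly equal and 4 of 5 RT + αPD-L1 mice were above them (log2 fold change 1.97 ± 0.368, adjusted p = 0.00475, and 1.32 without mouse 3, adjusted p = 0.00989). Tbx21, the master regulator T-bet, was at 11.7 to 41.8 CPM in RT + αPD-L1 and 7.36 to 21.6 CPM in RT (0.93, adjusted p = 0.153). Of 7 tested Ly6 genes (8 listed), which encode lipid-anchored surface proteins, Ly6a and Ly6c2 were called higher (2.6% of all genes, median 0.29). Ly6a (chr15:74994877-74998031) encodes Sca-1, a marker of stem and memory cells that interferon also induces. It was at 119.9, 385, 971, 200.3 and 173 CPM in RT + αPD-L1 and at 43.0, 88.3, 147, 23.9 and 64.2 CPM in RT. Only RT mouse 3 exceeded the lowest RT + αPD-L1 mouse (2.25 ± 0.493, adjusted p = 0.0115, 4.76-fold), and without RT + αPD-L1 mouse 3 the gene was 1.47 higher and missed the threshold (adjusted p = 0.0603). Ly6c2, a marker of effector and memory cells, rose 2.03-fold (adjusted p = 0.0275) and was not called without mouse 3 (adjusted p = 0.114), without mouse 2 or without RT mouse 1, 2, 3 or 5. Ly6 genes are near copies of each other, so reads could be split among them.

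The shares of cells that carried these genes were compared as well. After thinning to 3000 UMIs, 9 shares were compared over mice by an exact two-sided permutation test with 252 regroupings, in which the smallest possible p is 0.00794, and Benjamini-Hochberg adjustment over the 9. Cells with Isg15 made up 11.9, 50.9, 66.8, 28.7 and 34.3% in RT + αPD-L1 mice, against 11.3, 13.5, 11.2, 7.52 and 13.5% in RT mice. The means were 38.5 ± 21.1% and 11.4 ± 2.46% (SD, n = 5 mice each), with an exact permutation p of 0.0238 (adjusted 0.0357), and mouse 1 of RT + αPD-L1 was within the RT range. Cells with Ly6a made up 17.02, 39.8, 58.6, 26.9 and 24.7% in RT + αPD-L1 and 7.13, 12.2, 19.8, 3.76 and 11.3% in RT (means 33.4 ± 16.3% and 10.8 ± 6.04%, exact permutation p 0.0159, adjusted 0.0357), with mouse 1 of RT + αPD-L1 below RT mouse 3. Cells with both Tcf7 and Ly6a made up 11.7, 26.7, 36.1, 19.99 and 16.7% in RT + αPD-L1, against 5.35, 8.82, 13.8, 2.26 and 8.16% in RT. The means were 22.2% and 7.68% (exact permutation p 0.0159, adjusted 0.0357), and RT + αPD-L1 mouse 1 and RT mouse 3 overlapped.

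Cells with Gzmb made up 4.43, 6.3, 23, 5.56 and 7.02% in RT + αPD-L1 and 0.637, 2.61, 1.96, 0.752 and 1.28% in RT. In contrast to the summed level, all RT + αPD-L1 mice were above all RT mice (means 9.26 ± 7.74% and 1.45 ± 0.836%, exact permutation p 0.00794, the smallest possible, adjusted 0.0357), and the difference of 7.81 percentage points was 4.38 without mouse 3. Gzma gave 3.497, 4.35, 15.8, 3.1 and 3.68% in RT + αPD-L1 and 0.637, 1.73, 1.55, 1.504 and 0.972% in RT, also with no overlap (exact permutation p 0.00794, adjusted 0.0357). Free RNA gives such UMIs too: of barcodes excluded for Cd79a, 2 of 12 in RT + αPD-L1 and 0 of 11 in RT held Gzmb, and 0 of 12 and 0 of 11 held Gzma, which at 3 counts allows shares of up to 25% in RT + αPD-L1 and 27.3% in RT. These barcodes had medians of 4362 UMIs in RT + αPD-L1 and 3969 in RT and also held Tcf7 in 3 of 12 and 5 of 11, so they are too few and too mixed to set a background for the granzymes. They held Isg15 in 5 of 12 in RT + αPD-L1 (41.7%) and 0 of 11 in RT, and Ly6a in 10 of 12 (83.3%) and 6 of 11 (54.5%). Pooled over mice in the same way, kept cells held Isg15 in 51.4% in RT + αPD-L1 and 12.6% in RT. For Ly6a the pooled shares were 44.15% in RT + αPD-L1 and 13.3% in RT, below the excluded barcodes in both groups. The pooled Isg15 share of RT + αPD-L1 was above its 12 excluded barcodes, and the mean over mice (38.5%) was not. B cells can express both genes. The part of free RNA in the Isg15, Ly6a and granzyme shares, also between the pooled mice of 1 library, was not tested. Klrk1 (5.48% in RT + αPD-L1 and 3.22% in RT, exact permutation p 0.159, adjusted 0.204) and cycling cells (11.04% in RT + αPD-L1 and 10.3% in RT, p 0.579 by the same exact test) did not pass.

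Cells with Tox made up 27.97, 25.2, 21.8, 26.1 and 28.7% in RT + αPD-L1 mice, against 27.5, 30.8, 30.6, 30.8 and 32.04% in RT mice. The means of 25.95 ± 2.73% and 30.4 ± 1.69% differed by −4.41 percentage points (exact permutation p 0.0238, adjusted 0.0357), with RT mouse 1 among the RT + αPD-L1 mice. Thinned to 2000 UMIs the difference was −2.29 points and did not pass (adjusted exact permutation p 0.205). Cells with Tcf7 made up 72.2 ± 3.65% in RT + αPD-L1 and 74.2 ± 0.85% in RT (exact permutation p 0.294, adjusted 0.33). Without thinning the shares of RT + αPD-L1 and RT were 49.4 and 20.8% for Isg15, 43.1 and 17.5% for Ly6a, 15.2 and 3.13% for Gzmb, 44.4 and 52.8% for Tox, and 85.6 and 89.1% for Tcf7, the last then past the threshold (adjusted exact permutation p 0.0119). Cells under 3000 UMIs were left out of thinning, between 39 and 498 per mouse in RT + αPD-L1 and between 11 and 317 in RT.

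**Figure D3:**
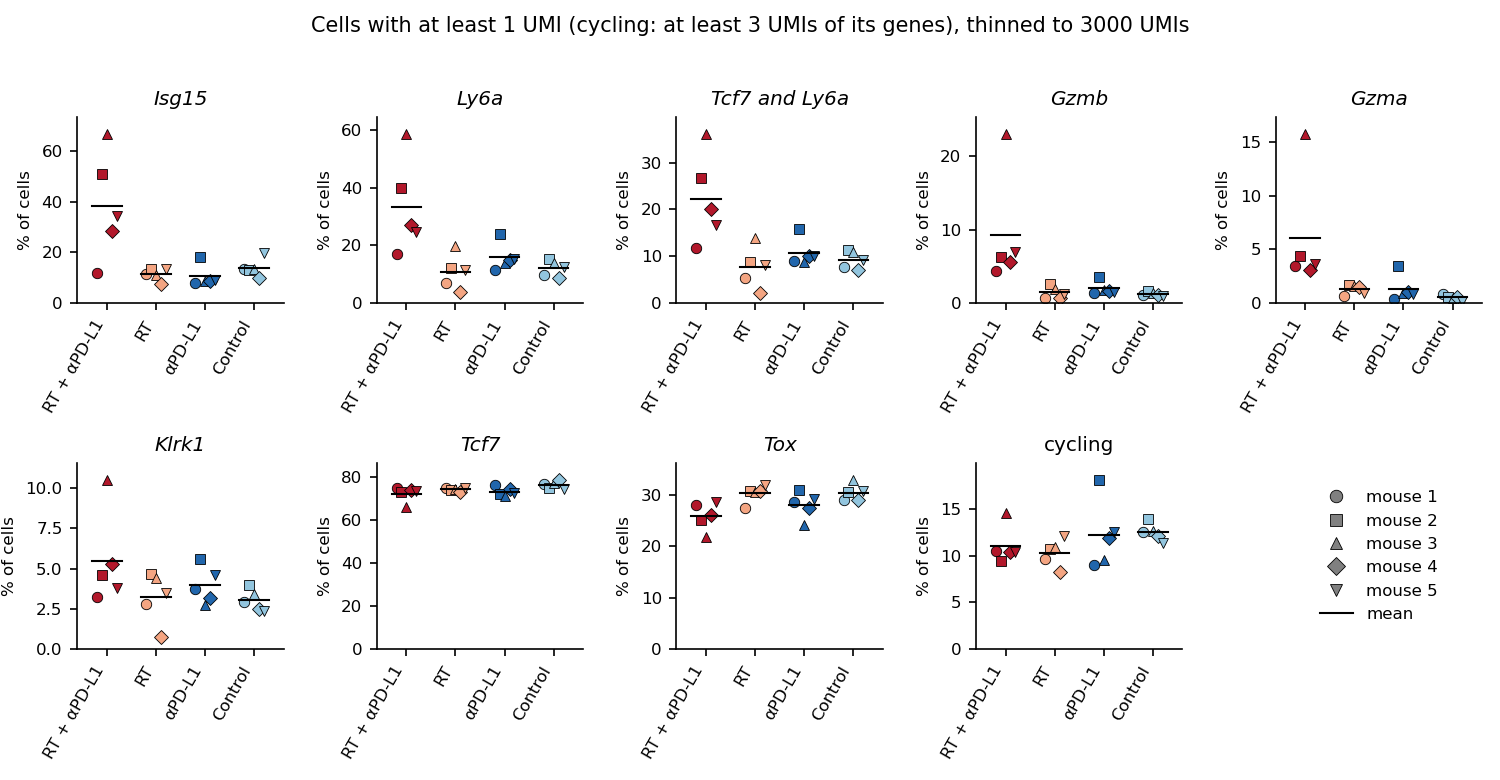
Percentage of cells with at least 1 UMI of each gene (cycling: at least 3 UMIs over its genes) after thinning each cell to 3000 UMIs, for each mouse of RT + αPD-L1, RT, αPD-L1 and Control, with means as bars. Gzmb and Gzma shares of all 5 RT + αPD-L1 mice lie above those of all 5 RT mice, while the Tcf7 shares of both groups overlap.

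Within the gates Gzmb was also higher in cells that had a Tcf7 UMI. In cells with Tcf7 and Tox it was at 13.6, 21.9, 225, 17.7 and 22.1 CPM in RT + αPD-L1, against 1.9, 4.5, 1.7, 0 and 2.7 CPM in RT. The groups did not overlap there, and the lowest RT + αPD-L1 mouse was above every RT mouse (log2 fold change 4.76, adjusted p = 0.000519). RT mouse 4, at 0, had only 52 cells in this gate. The RT + αPD-L1 mice were pooled in 1 library, of which mouse 3 gave 38163808 of 73674406 UMIs. The part of free RNA from mouse 3 in the Gzmb values of the other mice was not tested. In cells with Tcf7 and no Tox the log2 fold change was 3.43 (adjusted p = 0.00272), without Tcf7 3.02 (adjusted p = 0.0305), and in cycling cells, where mouse 3 had 1350 CPM and mouse 1 had 13.7 CPM, it was 3.07 and missed the threshold (adjusted p = 0.0704). Ly6a was called in all 4 gates, with log2 fold changes of 2.25 in cycling cells, 1.92 with Tcf7 and Tox, 2.23 with Tcf7 and no Tox and 1.995 without Tcf7.

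Of 26 cytokine receptor and feedback genes 5 were called higher (2.6% of all genes, median 0.22). The edgeR count was 0 without RT + αPD-L1 mouse 3, 0 without RT mouse 1, 2 or 5, 0 with hashtags called by HTODemux, and 1 without RT + αPD-L1 mouse 2 or RT mouse 4. Socs1, an inhibitor that interferon induces to turn off JAK kinases, was at 77.5, 139.7, 177, 73.1 and 72.5 CPM in RT + αPD-L1 and at 60.04, 57.5, 70.4, 42.01 and 68.8 CPM in RT. All RT + αPD-L1 mice were above all RT mice (0.85, adjusted p = 0.0303), although the call was lost without RT + αPD-L1 mouse 3 (0.58, adjusted p = 0.144), and without RT + αPD-L1 mouse 2 or RT mouse 1, 2, 4 or 5. Il12rb2, the signalling chain of the IL-12 receptor, was at 36.3 CPM in mouse 3 and 2.57 to 7.10 CPM in the other RT + αPD-L1 mice, against 0.82 to 4.08 CPM in RT (2.22, adjusted p = 0.0303, and 0.69 without mouse 3, adjusted p = 0.398), and its call was also lost without RT mouse 1, 2, 4 or 5. Il18rap, the accessory chain of the IL-18 receptor, rose 1.73-fold (adjusted p = 0.0345) and was not called without mouse 3 (adjusted p = 0.218), without RT + αPD-L1 mouse 2 or without RT mouse 1, 2 or 5. Il7r, the receptor of the survival cytokine IL-7, was at 174 to 251.4 CPM in RT + αPD-L1 and 139.9 to 209 CPM in RT (0.39, adjusted p = 0.157), and Stat3, a signal transducer of several cytokines, had 0.37 (adjusted p = 0.0868).

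Of 29 chemokine receptor and adhesion genes 5 were called higher (2.6% of all genes, median 0.18). The count was 2 without RT + αPD-L1 mouse 3 and 2 with HTODemux, 3 without RT + αPD-L1 mouse 2 or RT mouse 1, 4 or 5, and 8 without RT + αPD-L1 mouse 1 or 5. S1pr4, a receptor for the lipid that guides lymphocytes out of lymph nodes, was at 107, 115, 123, 114 and 111 CPM in RT + αPD-L1 mice, against 77.8, 93.4, 102, 74.1 and 89.2 CPM in RT mice. The groups did not overlap and the RT + αPD-L1 mice lay close together, mouse 1 included (0.37 ± 0.0694, adjusted p = 0.00475). Selplg, the selectin ligand PSGL-1, was also separated at a small difference (0.18, adjusted p = 0.00974). Cxcl10, the interferon-induced ligand of CXCR3, was at 14.7, 82.1, 105, 15.1 and 17.6 CPM in RT + αPD-L1 and at 9.38, 12.7, 29.8, 1.65 and 13.7 CPM in RT. It was carried by mice 2 and 3 (1.70, adjusted p = 0.0462) and was not called without mouse 3 (1.16, adjusted p = 0.252), without mouse 2 or without RT mouse 1, 2, 4 or 5. Its receptor Cxcr3 (0.30, adjusted p = 0.373) and the adhesion molecule Icam1 (0.42, adjusted p = 0.0712) were not called, while Ccrl2, an atypical chemoattractant receptor, rose 2.8-fold (adjusted p = 0.0115) and was not called without mouse 3 (adjusted p = 0.0943).

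Stem and memory genes had no called member among 19 (median −0.0025, unadjusted tests of the whole comparison gave 1890 genes under 0.05). Tcf7 (chr11:52252371-52283014) was at 544, 501, 422, 538 and 521 CPM in RT + αPD-L1 and at 574, 543, 533, 516 and 543 CPM in RT. Mouse 3 was the lowest, and the groups overlapped (−0.10 ± 0.0535, adjusted p = 0.393). Dapl1, a gene of stem-like CD8 T cells, was at 315 to 562.5 CPM in RT + αPD-L1 and 497 to 663 CPM in RT (−0.29, adjusted p = 0.167). Myb, a factor needed for stem-like exhausted cells, had −0.24 (adjusted p = 0.225).

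Among 23 inhibitory receptors and exhaustion regulators 1 gene was called, and it was lower (0.448% of all genes were called lower, median of the list −0.03). Rgs16 (chr1:153740349-153745468) encodes a GTPase activator that ends signals of G protein-coupled receptors and is induced by T cell activation. It was at 22.7, 15.4, 14.7, 18.9 and 21.8 CPM in RT + αPD-L1 mice, against 28.0, 27.5, 27.3, 30.5 and 28.3 CPM in RT mice. Every RT + αPD-L1 mouse lay below every RT mouse, which were nearly equal (−0.64 ± 0.135, adjusted p = 0.00939, and 0.0515 without RT + αPD-L1 mouse 3). Tox (chr4:6686353-6991557) was at 121, 107, 86.6, 113 and 124 CPM in RT + αPD-L1 and at 123, 132, 132, 121 and 135 CPM in RT, and was not called (−0.24, adjusted p = 0.0783). In cells without Tcf7 it was called lower (−0.47, adjusted p = 0.0392). Havcr2, the receptor TIM-3 of terminal effectors, was at 15.7 CPM in mouse 3 and 1.504 to 5.19 CPM in the other RT + αPD-L1 mice, against 2.23 to 6.41 CPM in RT (0.79, adjusted p = 0.509). Antigen receptor response genes had no called member among 30 (median −0.06), Egr3, an early factor of antigen receptor signals, being at 2.91 to 4.78 CPM in RT + αPD-L1 and 4.61 to 6.72 CPM in RT (−0.63, adjusted p = 0.0615).

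The 5 genes at least 2-fold lower all averaged under 2 CPM, and the named genes that fell did so by less. Cpt1a, the entry enzyme for fatty acids into mitochondria, was at 11.1, 8.46, 8.75, 10.2 and 9.8 CPM in RT + αPD-L1 and at 9.38, 14.3, 15.5, 16.5 and 16.1 CPM in RT. Only RT mouse 1 lay among the RT + αPD-L1 mice (−0.59 ± 0.126, adjusted p = 0.0103). Hivep3, a zinc finger protein that binds κB-like DNA (−0.61, adjusted p = 0.016), Lta, the cytokine lymphotoxin α (−0.56, adjusted p = 0.034), and Pou2af1, a transcriptional coactivator best known from B cells (−0.52, adjusted p = 0.0218), also fell, and none of these 3 was called without RT + αPD-L1 mouse 2 or 3 or without RT mouse 5, nor Lta without RT mouse 1, 3 or 4. Ifi27, an interferon-induced gene by name, fell as well, at 174, 127, 96.4, 130 and 142 CPM in RT + αPD-L1 and at 171, 188.5, 187.5, 183 and 165 CPM in RT (−0.44, adjusted p = 0.0103). RT + αPD-L1 mouse 1 again stood with the RT mice. Dnah8, a dynein heavy chain, was separated between the groups (−0.31, adjusted p = 0.00635), as was Ftl1-ps1 (−0.38, adjusted p = 0.00136), a ferritin pseudogene whose reads could come from its parent. Trbc2, a constant segment of the T cell receptor β chain, was at 656, 610.4, 641.5, 665.5 and 664.5 CPM in RT + αPD-L1 and at 795, 746, 724.5, 703 and 706 CPM in RT (−0.18, adjusted p = 0.0102). It was the 1 called gene of 12 in the T cell receptor complex, beside 0.448% of all genes called lower. Of 13 genes of the mitochondrial genome 1 was called lower, mt-Nd2 (−0.19, adjusted p = 0.0369, beside 0.448% of all genes), and this call was lost without any 1 of the RT mice, without RT + αPD-L1 mouse 2 or 3 and with scaling to library totals.

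No gene was called among 30 S phase, 30 mitosis, 19 p53 target, 15 BCL2 family, 18 glycolysis, 11 heat shock, 13 costimulatory, 78 ribosomal protein, 84 nuclear OXPHOS and 60 replication-dependent histone genes that were tested with edgeR, and the list medians lay between −0.06 and 0.08. Among the ribosomal protein genes, 12 of 78 were lower in all RT + αPD-L1 mice than in all RT mice, as were 1.24% of all genes, and 5 were called lower when counts were scaled to library totals. A list of 23 genes that the study itself names had 9 called higher (2.6% of all genes, median 0.42). Since the study chose them on these samples this count is not independent evidence. Plk1 and Cdk1, kinases of mitosis, had log2 fold changes of 0.19 and 0.19 (adjusted p = 0.765 and 0.7). The glycolytic list summed to 6270 CPM in RT + αPD-L1 mouse 3 and 5099 to 5148 CPM in its other mice, against 5020 to 5361 CPM in RT.

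Without RT, the same antibody was set against no treatment (10702 αPD-L1 cells and 8988 Control cells). In this comparison 55 of 12051 genes (0.456%) were called in either direction, and no gene of the antiviral effector, sensor, signalling, ISG15 conjugation, PARP, GTPase or MHC class I lists was among them. DESeq2 called 115 genes, limma-voom 154, and 1691 had an unadjusted edgeR p under 0.05. For Isg15 the log2 fold change was −0.50 for αPD-L1 over Control, for Rsad2 −0.81 and for Ifit3 −0.75, with adjusted p of 0.738, 0.709 and 0.588. The difference between both comparisons was tested as an interaction in the same fit, and 105 genes (0.871%) were called, 79 of them (0.656%) for a more positive effect with RT. These included 15 of 36 antiviral effectors, 4 of 17 sensors, 3 of 19 signalling genes, 3 of 5 ISG15 conjugation genes, 1 of 16 GTPases and 1 of 24 MHC class I genes. Of the PARP genes 0 of 8 were among them. The difference was 3.23 for Isg15 (adjusted p = 0.0351), 4.63 for Rsad2 (0.031), 3.71 for Ifit3 (0.0248), 2.40 for Isg20 (0.0124) and 1.42 for Stat2 (0.0231) on the log2 scale. Gzmb was not among them. It had 1.33 for αPD-L1 over Control against 3.38 for RT + αPD-L1 over RT, and the difference of 2.05 had an adjusted p of 0.536. The difference for Ly6a was 1.66 (adjusted p = 0.316), and for Il7r, called higher for αPD-L1 over Control (0.64, adjusted p = 0.0417), it was −0.25 (adjusted p = 0.713). The count of 105 fell to 19 without RT mouse 2 or RT mouse 3 and was 239 without RT + αPD-L1 mouse 1.

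**Figure D4:**
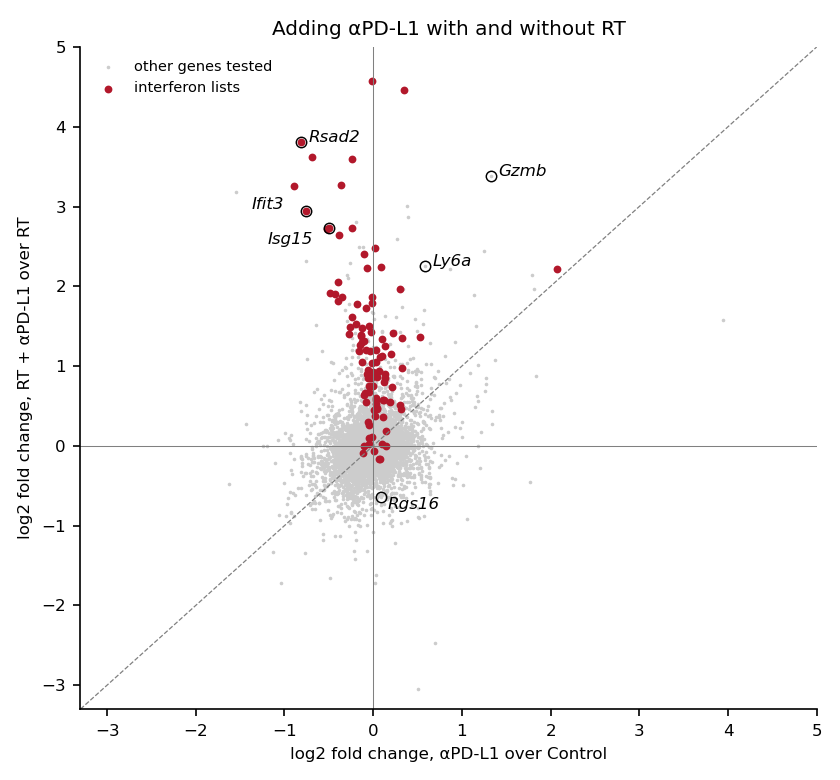
Log2 fold change of αPD-L1 over Control (x axis) and of RT + αPD-L1 over RT (y axis) for all genes tested, with genes of the interferon lists in red, 6 genes named and the line of equal change dashed. Isg15, Rsad2 and Ifit3 lie at −0.50, −0.81 and −0.75 on the x axis and at 2.73, 3.81 and 2.95 on the y axis, while Gzmb and Ly6a are above 0 on both axes.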

How the data were processed

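For each cell, the authors deposited raw counts of UMIs per gene and per hashtag. The header of these counts names Cell Ranger 6.1.2, and the processing notes name mm10. The study's methods state an earlier version of Cell Ranger. The sample labels name a 3′ kit, while hashtags of the type used are usually sequenced in 5′ kits. A hashtag was called positive above the emptiest bin (0.1 log10 units) between its background and positive modes, and HTODemux (Seurat 5.3.0), the function the study's methods name, was the alternative. Run on the filtered barcodes, it kept 2397 instead of 4693 cells of RT + αPD-L1 mouse 3 and 108 instead of 849 cells of RT mouse 1. Barcodes with several hashtags (8.85% in RT + αPD-L1 and 7.47% in RT) were removed as doublets, while doublets within a mouse could not be. Counts were summed per mouse and fitted with edgeR 4.0.16 (R 4.3.3, TMM scaling, filterByExpr). DESeq2 1.42.0, limma 3.58.1, other scalings and filters, thinned sums and leaving out each mouse were alternatives. In simulated counts for RT + αPD-L1 against RT (12072 genes), 100 of 100 genes changed by a log2 of 1 and 100 of 100 changed by 2 were recovered, with 8 false calls. This does not carry over to genes with a large spread between mice. Gzma, at a log2 fold change of 2.14 in the data, was not called (edgeR adjusted p = 0.244). Exact permutation tests went through all regroupings of the mice, computed with numpy 2.4.6. The p-values measure spread between hashtagged mice within 1 library per treatment. Gene positions are from GENCODE vM21 (GRCm38).

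Named genes were the 15 highest and 15 lowest called genes with at least 10 CPM on average, without predicted genes, the genes the study names, and up to 4 members of each pathway list (2 by adjusted p, 2 by size of change). A few further members were named after their values were seen. The members and lists were chosen with earlier results of these data known. Limits on shares cover counting error only.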

Additional observations from a re-analysis of the deposited data

Results flagged for a closer look

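Mouse 3 of RT + αPD-L1 stood apart from the other 4 mice of its group in 22 of the 33 groups of mice in which the highest or lowest mouse was separated by an unusually large gap. In all 338 groups were checked. Chance gives such a gap in about 1 in 20 for independent, normally distributed values. These checks were not independent, since a gene can enter singly, as a share of cells and in a summed list. The 1 in 20 is therefore no baseline for the 33. Among effector and activation genes, mouse 3 was the highest for Gzmb (790.83 CPM, others 29.79 to 56.84), Gzmc (7.78 CPM, others at most 1), Klrg1 (18.55 CPM, others at most 2.66), Klrc1 (84.27 CPM, others 11.66 to 24.01), Klrk1 (64.96 CPM, others 13.76 to 25.01), Il12rb2 (36.32 CPM, others 2.57 to 7.1), Havcr2 (15.67 CPM, others at most 5.19) and Cxcr3 (135.84 CPM, others 94.71 to 105.27). It was also the highest for Hif1a (151.74 CPM), Ifngr1 (278.8 CPM), Cdkn1a (8.44 CPM), Ifi204 (20.28 CPM) and Ifitm3 (67.34 CPM).

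The shares of cells of mouse 3 followed, with Gzmb in 23%, Gzma in 15.76% and Klrk1 in 10.51% of its thinned cells, 14.56% cycling cells, and the lowest share with Tcf7 of its group (65.86%, others 72.97 to 75.06%). Its summed levels were the highest for cytotoxic granule genes (3938.5 CPM, others 2121.3 to 2392.2), glycolysis (6270.1 CPM), the NK cell markers (574.0 CPM) and the monocyte or macrophage markers (66.1 CPM, others 17.0 to 20.3). Mouse 3 also gave 4693 of the 9673 RT + αPD-L1 cells, and the part of other cell types in its values was not tested.

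Other single mice stood apart in 11 groups. RT + αPD-L1 mouse 1 was the lowest for Hist1h4h (18.84 CPM) and the highest for Rpl39l (3.29 CPM), and RT + αPD-L1 mouse 2 was the lowest for the summed costimulatory receptors (1372.5 CPM) and regulatory T cell markers (284.2 CPM). RT mouse 4, which had 144 cells, was the highest for Bik (9.06 CPM), Ifitm3 (3.29 CPM) and Ifngr1 (115.31 CPM) and the lowest for Cdk1 (14 CPM) and the summed PARP genes (169.7 CPM). RT mouse 5 was the highest for the summed histone genes (2010.1 CPM) and for red blood cell markers (0.5 CPM, others at 0).

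The effect of adding αPD-L1 differed between mice with and without RT for 21 of 120 named genes, by the interaction term of the edgeR fit (adjusted p under 0.05). Over all genes tested it was 0.871%. Many named genes were picked by their change in RT + αPD-L1 against RT, which enters this difference, so the count of 21 is a description. On the log2 scale, effect with RT minus effect without RT, the difference was 4.63 for Rsad2, 4.31 for Ifi44, 4.15 for Ifit3b, 3.84 for Oas2, 3.71 for Ifit3, 3.64 for Oasl2, 3.24 for Ifit1, 3.23 for Isg15, 2.97 for Usp18, 2.51 for Cmpk2, 2.45 for Gbp10, 2.40 for Isg20, 2.33 for Dhx58, 2.22 for Irf7, 1.42 for Stat2, 0.80 for Uba7, 0.58 for H2-Q4 and 0.53 for Hist1h4h. It was negative for Cpt1a (−1.03), Dnah8 (−0.61) and Foxd2os (−0.50).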

How the results depend on the processing

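The 313 genes higher and 54 lower were 477 and 213 with limma-voom, 186 and 23 with HTODemux, and 133 and 10 with sums thinned to the smallest total. With only the 10 compared mice, edgeR called 0 and 0 (1441 genes at an unadjusted p under 0.05), and, chosen after seeing the data, DESeq2 called 125 and 16 and limma-voom 2 and 3. Leaving out 1 mouse at a time gave 158 to 422 higher and 16 to 89 lower, lowest without RT + αPD-L1 mouse 3 and highest without mouse 5. Counts of higher genes were also more than 1.5 times smaller without RT + αPD-L1 mouse 2 (175) or RT mouse 2 (203) or 5 (205). Without both RT mouse 4 and RT + αPD-L1 mouse 3, chosen after seeing the data, they were 96 and 6. Counts of lower genes moved as much without RT mouse 1 (29) or 2 (32) and RT + αPD-L1 mouse 1 (85), 2 (25) or 4 (82). The 105 genes called for the difference with and without RT were 63 with HTODemux, 27 thinned, and 19 to 239 with 1 mouse left out, moving by over 1.5 times without RT mouse 1, 2, 3 or 4, RT + αPD-L1 mouse 1, 2, 3 or 5, αPD-L1 mouse 3, 4 or 5, or Control mouse 1, 2, 3 or 5.

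Calls in both directions ranged over left-out mice from 50 to 272 in cycling cells (142 with all, lowest without RT + αPD-L1 mouse 3, highest without mouse 4), 125 to 318 with Tcf7 and Tox (240), 190 to 523 with Tcf7 and no Tox (400) and 99 to 294 without Tcf7 (223), each lowest without RT + αPD-L1 mouse 3. With the 10 mice alone they were 0, 129, 177 and 100, and a gate of 2 UMIs gave 139 with Tcf7 and Tox. The differences in shares ranged from 4.38 to 9.02 points for Gzmb, 2.38 to 5.54 for Gzma, 16.3 to 26.7 for Ly6a, 20 to 33.8 for Isg15, 11.1 to 17.2 for Tcf7 and Ly6a, and −5.12 to −3.36 for Tox. Without RT mouse 2, 3, 4 or 5 these 6 missed the threshold (adjusted exact permutation p 0.0571, for Tox 0.0714). The Gzmb and Gzma shares of all RT + αPD-L1 mice still lay above those of all remaining RT mice there. Tox also missed the threshold at 2000 UMIs (−2.29, 0.205), and Tcf7 passed it unthinned (−3.5, 0.0119). Where a cause is not given by fewer samples or reads, it was not tested.

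Of the 59 called named genes, 38 were called in all 10 leave-outs of RT + αPD-L1 and RT mice, 18 were lost without RT + αPD-L1 mouse 3, and 47 were called with HTODemux. None of 120 named genes turned direction past the threshold. No paired analysis was possible because the hashtag numbers name antibodies and pair no mice.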
